A study of Mus musculus with 4 samples.

Results

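The 35 genes described here are the transcription factors, signaling proteins and marker genes of the naive pluripotency network of mouse ES cells, together with the receptor, transducer and targets of LIF signaling. They were taken as all probes of the array that carry one of 35 gene symbols, which gave 49 probes, and they are 35 of the 27360 named genes on the array. Of these genes, 25 were read by 1 probe, 6 by 2 probes and 4 by 3 probes. All but 1 of these 49 probes, that is 48, passed the software's test for signal over background on every array.

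E14tg2a is a line of mouse ES cells, grown here without feeder cells in serum with LIF. Total RNA was hybridized to 4 one-color Agilent arrays, with 1 array for each condition. They were untreated cells, control siRNA cells 72 h after transfection, and Rif1 siRNA cells 48 h and 72 h after transfection. The label of the untreated cells states no harvest time. Every group is a mixed population of the same line, in which fewer expressing cells and less RNA per cell cannot be told apart. Because each condition has a single array, the differences given below carry neither a replicate check nor a p-value. The control siRNA array serves both times, so the 2 comparisons with it are not independent, and at 48 h the effect of the siRNA and of the harvest time cannot be told apart.

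Mouse ES cells are kept in the naive state by a network in which OCT4 (encoded by Pou5f1), SOX2 and NANOG act with a second tier of factors such as ESRRB, KLF4, TBX3 and TFCP2L1. LIF binds a receptor made of LIFR and gp130 (encoded by Il6st), the JAK kinases then activate STAT3, and STAT3 turns on targets that feed the network as well as SOCS3, which inhibits the receptor in return. RIF1, the protein that was depleted, regulates the timing of DNA replication and is itself abundant in ES cells.

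The level of a probe is its background-corrected signal divided by the 75th percentile of all signals of its array, and a log2 difference is the log2 of the ratio of 2 levels. Levels of different probes are not compared, since probes differ in their response. The array software gives bright spots an error of 10.0%, which is 0.20 for a log2 difference. This error, which leaves out all differences between cultures, is the only one that the files state. Over all probes, the SD of the log2 differences between control siRNA and untreated cells was 0.26, and it includes transfection and any difference in culture time. Spots well above background made up 58.8% to 74.1% of an array, lowest in untreated cells and highest at 72 h of Rif1 siRNA. For Rif1 itself the level was 5.55 in untreated and 5.42 in control siRNA cells, and 2.15 after 48 h and 4.15 after 72 h of Rif1 siRNA, which is a log2 difference of -1.34 at 48 h and -0.39 at 72 h from control siRNA. The targeted transcript, read by 1 probe, was thus lower at both times, and less so at the later one. At 72 h the fall was under 1.5-fold and smaller than 0.41, which is 2 times the software error of a log2 difference. The ES cell markers Pou5f1, Sox2, Nanog, Zfp42 and Esrrb each had a probe well above background on every array. Where 4 levels are given without labels, they follow the same order of arrays.

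The results turn on a few probes, and 30 bases of each are printed to show where genes are read more than once and where a probe shares sequence with a probe of another gene. They are copied from the array files, 5′ to 3′ on the strand of the transcript, and all are on the plus strand of mm9. The 3 Nanog probes lie at chr6:122664590-122664649, chr6:122663514-122663573 and chr6:122663676-122663735, the Tfcp2l1 probes at chr1:120581646-120581705 and chr1:120577637-120577696, and the Pou5f1 probe at chr17:35647280-35647340. Capitals mark the longest run shared with a probe of another gene, which is 26 bases shared with Zfp872 for the third Nanog probe and 25 bases shared with Gm5712 for the Pou5f1 probe.
Nanog A_55_P2007708: ccatgatgaaccgatgccagctggactagt
Nanog A_55_P2007703: accccacaagccttggaattattcctgaac
Nanog A_55_P2007699: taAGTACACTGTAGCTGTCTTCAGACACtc
Tfcp2l1 A_52_P175376: gtacctgaaataaagcatattttgcacttg
Tfcp2l1 A_55_P2413458: gtctaaactggagagccaaagatggcacac
Pou5f1 A_51_P202340: AAGTATTGAGTATTCCCAACGAGAAgagta

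Promoters of 3 genes are also shown, because the network is described through factors that bind such regions: the promoter of the core factor Nanog, of the network factor Tfcp2l1 and of the STAT3 target Socs3. The sequences are from RefSeq on GRCm38.p6, each from 250 bases before to 50 bases after an annotated start, at chr6:122707239-122707538 (plus strand), chr1:118627695-118627994 (plus strand) and chr11:117969317-117969616 (minus strand). Of the 35 genes, 27 were matched by symbol to this table, with 37 promoters. For Nanog, which has 2 starts in the table, the first is shown.
Nanog promoter: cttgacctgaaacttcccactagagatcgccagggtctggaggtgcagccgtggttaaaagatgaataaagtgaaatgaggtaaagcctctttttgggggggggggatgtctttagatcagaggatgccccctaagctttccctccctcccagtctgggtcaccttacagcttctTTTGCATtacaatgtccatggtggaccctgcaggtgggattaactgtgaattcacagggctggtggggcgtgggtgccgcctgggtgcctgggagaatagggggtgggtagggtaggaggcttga
Tfcp2l1 promoter: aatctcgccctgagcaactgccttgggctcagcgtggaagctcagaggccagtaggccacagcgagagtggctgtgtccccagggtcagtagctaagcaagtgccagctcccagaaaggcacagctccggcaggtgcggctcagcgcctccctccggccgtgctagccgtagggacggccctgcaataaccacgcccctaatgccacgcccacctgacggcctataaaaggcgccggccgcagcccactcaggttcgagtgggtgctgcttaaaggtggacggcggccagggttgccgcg
Socs3 promoter: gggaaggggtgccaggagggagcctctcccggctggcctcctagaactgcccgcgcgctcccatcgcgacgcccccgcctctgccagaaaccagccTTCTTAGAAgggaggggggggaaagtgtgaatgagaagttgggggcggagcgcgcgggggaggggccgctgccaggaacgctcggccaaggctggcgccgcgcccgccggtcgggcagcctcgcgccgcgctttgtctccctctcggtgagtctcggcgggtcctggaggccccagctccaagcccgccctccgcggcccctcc

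Capitals mark matches to 6 short motifs that were searched on both strands. The Nanog promoter held TTTGCAT, the octamer without its last base, and the Socs3 promoter held 1 match to TTCNNNGAA, the palindrome bound by STAT proteins. The Tfcp2l1 promoter held none of the 6. TTCNNNGAA was in the promoters of Esrrb, Lin28a and Socs3, which is 3 of the 37 member promoters (8.11%) against 8.30% of all 32851 promoters. The POU octamer ATGCAAAT was found for Spp1 and Zfp42 (5.41% of member promoters against 1.74% of all). TTTGCAT, which is contained in every octamer match, was found for Nanog, Sox2, Spp1 and Zfp42 (13.5% against 4.63%). It was added after these promoters were seen, so its 2 shares are not a planned comparison. AAGGTCA, bound by ESRRB, was found for Lifr (2.70% against 4.72%), CACGTG, the E-box of MYC, for Gbx2, Klf4 and Pim1 (8.11% against 7.15%), and GGGTGTG, bound by KLF factors, for Esrrb, Mycn, Pim1 and Zfp42 (10.8% against 7.95%). These are matches of letters only, and no binding was measured.

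The first question was whether depletion of Rif1 alters the network. No member probe differed over 2-fold from control siRNA at either time. At 72 h, 0 of 49 member probes were over 2-fold higher, where 2.12% of all 24312 measured probes were, and 0 were over 2-fold lower, where 0.983% were. At 48 h the counts were again 0 higher and 0 lower, with 2.35% and 1.01% over all 24266 measured probes. A share of 2.12% of 49 probes is close to 1 probe, so these counts of 0 are near the background. Between control siRNA and untreated cells, 0 of 48 probes were over 2-fold higher and 0 lower, where 0.377% and 0.616% of all were, and between the 2 times of Rif1 siRNA the counts were 0 and 0 of 49, where 0.411% and 0.578% were.

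At a threshold of 1.5-fold, 3 member probes were higher at 72 h, those of Fbxo15 and Pou5f1 and 1 of the 2 Tfcp2l1 probes. Pou5f1 did not pass with normexp background correction, with median scaling or with centering on bright probes. The third Nanog probe was the 1 that was lower. The share was 4.45% of all probes higher and 2.54% lower, close to the 3 and the 1 of 49 seen among the members (6.12% and 2.04%). At 48 h, 6 member probes were higher, those of Fbxo15, Tbx3 and Prdm14 and 1 probe each of Tfcp2l1, Nr5a2 and Esrrb, and 0 were lower. That is 12.2% of the members against 5.55% of all probes higher, and 0 against 3.43% of all probes lower. Between control siRNA and untreated cells 0 of 48 member probes passed in either direction, where 1.34% of all probes were higher and 1.92% lower. Between 72 h and 48 h of Rif1 siRNA 0 of 49 passed, where 1.72% were higher and 2.16% lower.

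**Figure D1:**
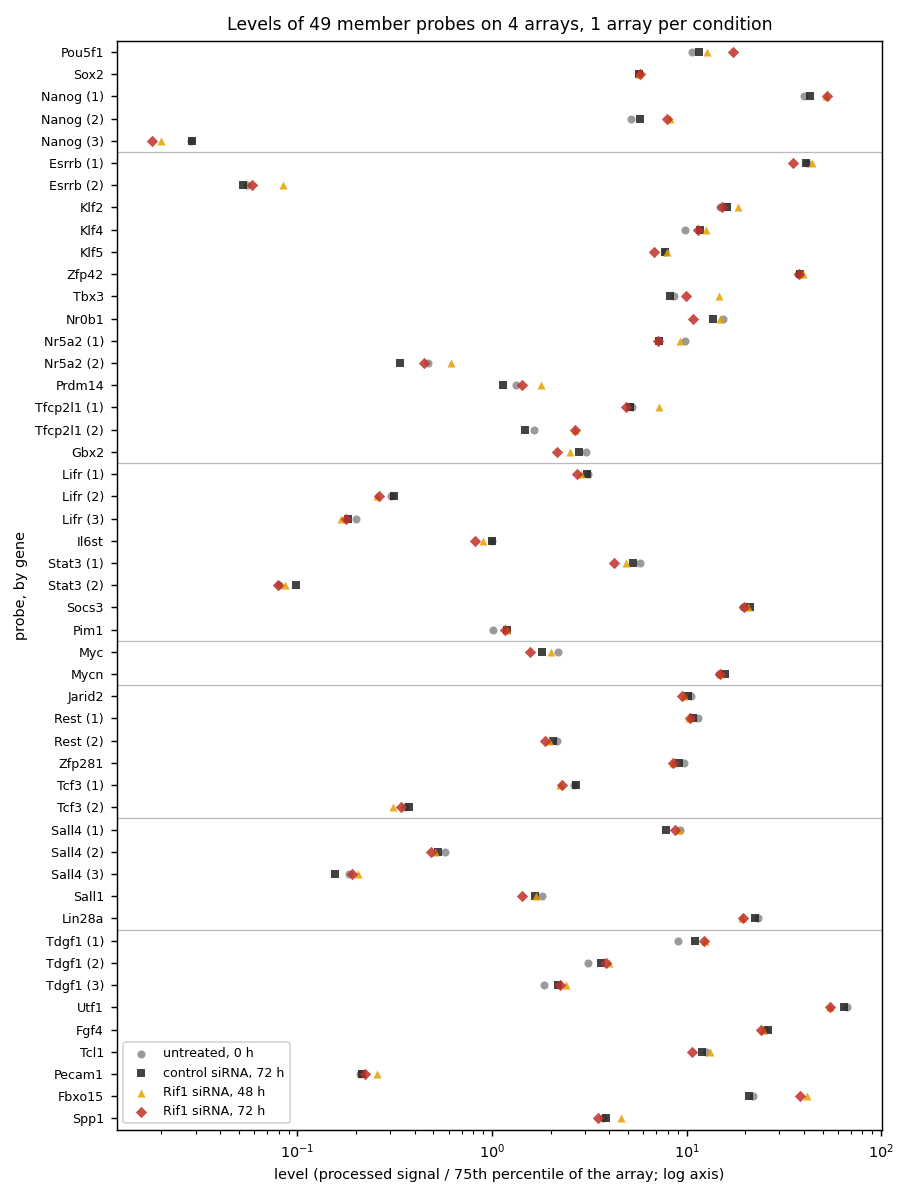
Level of each of the 49 member probes on the 4 arrays (horizontal log axis, ratio to the 75th percentile of the array), with 1 marker per array and genes grouped by role between the lines. The hour that the legend gives for untreated cells is not a harvest time from the label. Most probes have their 4 markers close together, and Fbxo15 stands apart with both Rif1 siRNA arrays (41.5 and 38.1) to the right of the others (21.9 and 21.0).

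Among the core factors, Pou5f1 was higher with Rif1 siRNA, Sox2 was level across all arrays, and the probes of Nanog differed in direction, with a mean log2 difference of 0.08 at 48 h and 0.01 at 72 h over its 3 probes. Over the 2 Nanog probes well above background on all arrays, the means were 0.38 and 0.37. The level of Pou5f1, the POU factor OCT4, was 10.6 in untreated and 11.5 in control siRNA cells, and 12.8 after 48 h and 17.4 after 72 h of Rif1 siRNA. Both Rif1 siRNA arrays lay above both others, and the difference from control siRNA was 0.15 at 48 h and 0.59 at 72 h on the log2 scale, a ratio of 1.51 at 72 h, and down to 0.51 (log2) over the processing settings tried. Its probe shares 25 bases with that of Gm5712, whose levels were 3.90, 4.27, 5.03 and 6.94 and whether each probe also reads the other transcript was not tested. Sox2, the HMG-box partner of OCT4, had levels of 5.71 in untreated and 5.71 in control siRNA cells, and 5.73 after 48 h and 5.76 after 72 h of Rif1 siRNA. Its log2 difference was 0.01 at 72 h, between -0.07 and 0.04 over the processing settings tried.

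Nanog, the homeobox factor that holds ES cells in self-renewal, was read by 3 probes that did not move together. Probe A_55_P2007708 had a level of 40.3 in untreated and 43.4 in control siRNA cells, and 52.1 after 48 h and 52.9 after 72 h of Rif1 siRNA, and probe A_55_P2007703 had 5.21, 5.79, 8.20 and 7.91. On both, the Rif1 siRNA arrays lay above the other arrays, by 0.27 and 0.29 (log2, 48 h and 72 h) from control siRNA on the first and by 0.50 and 0.45 on the second. The third probe, A_55_P2007699, had a level of 0.0285 in untreated and 0.0288 in control siRNA cells, and 0.0198 after 48 h and 0.0178 after 72 h of Rif1 siRNA, and it was not well above background in untreated cells. Its log2 difference was -0.54 at 48 h and -0.69 at 72 h, opposite to the other 2. On the control siRNA array the lowest level well above background was 0.0159, so this probe was read near the limit. The Zfp872 probe with which it shares 26 bases was read at 0.00504, 0.00335, 0.00164 and 0.00459, which is below the corresponding limit of every array.

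The naive network factors downstream of the core had the largest median difference between the times of the 7 roles into which the members were sorted. At 48 h, 13 of their 14 probes were higher than with control siRNA, with a median log2 difference of 0.28, where 38.7% of all measured probes were higher. At 72 h 5 of 14 were higher, with a median of -0.04, close to all measured probes, of which 36.9% were higher with a median of -0.07. All 14 probes were lower at 72 h than at 48 h of Rif1 siRNA, with a median of -0.32 and a range from -0.57 to -0.01, where the median of all probes was -0.01 and 48.8% were higher. With median scaling these counts were 11 of 14 at 48 h and 13 of 14 from 48 h to 72 h, and with quantile normalization 9 of 14 were higher at 72 h. Between control siRNA and untreated cells 4 of the 14 were higher, against 47.6% of all probes.

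Tbx3, a T-box factor downstream of LIF and PI3K signaling, had a level of 8.65 in untreated and 8.26 in control siRNA cells, and 14.7 after 48 h and 9.92 after 72 h of Rif1 siRNA. The 48 h array stood above the other 3, at 1.78 times control siRNA (log2 0.83), and the 72 h difference was 0.26. Prdm14, a repressor of FGF signaling and of DNA methyltransferase genes in naive cells, had levels of 1.33, 1.14, 1.78 and 1.42, with log2 differences of 0.64 at 48 h and 0.32 at 72 h. For both genes the 2 Rif1 siRNA arrays lay above both other arrays. The 48 h difference of Prdm14 was under 1.5-fold with median scaling and, at 0.42, against untreated cells.

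Tfcp2l1, a CP2-family factor that is a target of STAT3, was read differently by its 2 probes at 72 h. Probe A_55_P2413458 had a level of 1.64 in untreated and 1.48 in control siRNA cells, and 2.69 after 48 h and 2.67 after 72 h of Rif1 siRNA, with both Rif1 siRNA arrays above the others and log2 differences of 0.85 and 0.85. Probe A_52_P175376 had 5.23, 5.11, 7.25 and 4.88, so that only the 48 h array was high, with log2 differences of 0.50 and -0.07. The probes lie at separate positions of the gene, and transcript forms were not examined here.

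Nr5a2, the nuclear receptor LRH-1, was lower with control siRNA than in untreated cells on both of its probes. Probe A_51_P514449 had a level of 9.79 in untreated and 7.19 in control siRNA cells, and 9.29 after 48 h and 7.14 after 72 h of Rif1 siRNA, and probe A_55_P2142908 had 0.470, 0.338, 0.618 and 0.445. From control siRNA, the log2 differences at 48 h were 0.37 and 0.87, and at 72 h they were -0.01 and 0.40. Control siRNA itself differed from untreated cells by -0.45 and -0.48, which is larger than the 48 h difference on the first probe, and the untreated level lay inside the range of the Rif1 siRNA arrays on the second.

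Esrrb, an orphan nuclear receptor of the network, had a level of 41.8 in untreated and 41.2 in control siRNA cells, and 44.1 after 48 h and 35.2 after 72 h of Rif1 siRNA on probe A_55_P1954302. On probe A_52_P628212 the levels were 0.0550, 0.0525, 0.0846 and 0.0585. The log2 differences at 48 h were 0.10 and 0.69, and those at 72 h were -0.23 and 0.16. Only the second probe passed 1.5-fold, at 48 h, and with normexp background correction it did not. The array's accession for it was not matched to RefSeq.

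Nr0b1, an orphan nuclear receptor also called DAX1 that binds OCT4, was measured by 10 spots on each array. Its level was 15.4 in untreated and 13.7 in control siRNA cells, and 14.8 after 48 h and 10.9 after 72 h of Rif1 siRNA, with an SD between spots of 0.02 to 0.04 (log2). The 72 h array was the lowest of the 4, at -0.33 from control siRNA, while the 48 h array was at 0.12. Gbx2, a homeobox gene and STAT3 target, had levels of 3.04, 2.79, 2.51 and 2.17 and was lower with Rif1 siRNA by both arrays. The Krüppel-like factors differed little. The log2 differences at 48 h and 72 h were 0.18 and -0.09 for Klf2, 0.09 and -0.04 for Klf4, and 0.03 and -0.18 for Klf5. Zfp42, the zinc finger gene also known as Rex1, was at 0.04 and -0.03.

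**Figure D2:**
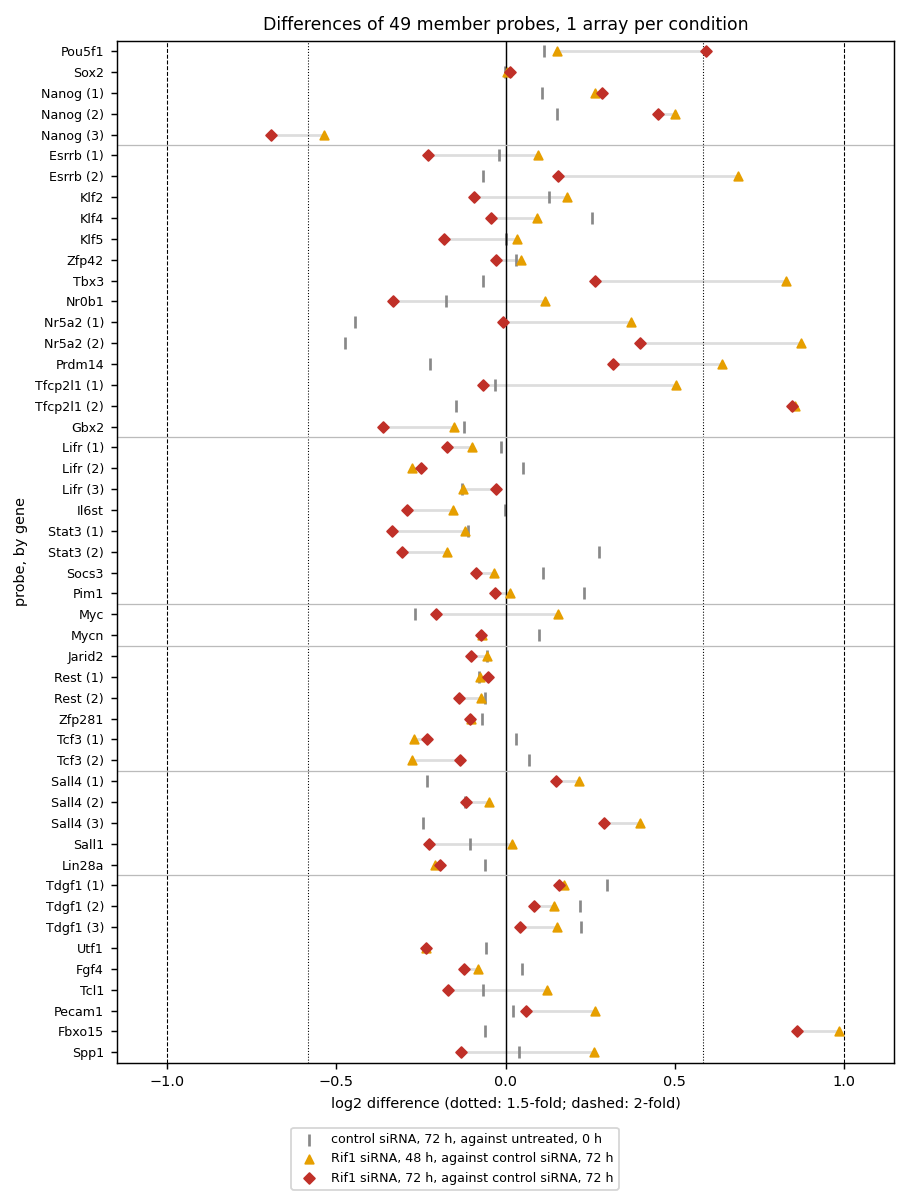
Log2 difference of each member probe from control siRNA at 48 h (triangles) and at 72 h (diamonds) of Rif1 siRNA, and of control siRNA from untreated cells (bars), with genes grouped by role and 1 array per condition. The hour that the legend gives for untreated cells is not a harvest time from the label. In the second block, the naive network factors, the triangles lie to the right of the diamonds for all 14 probes, and no marker in the plot passes the dashed 2-fold lines.

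The LIF pathway was read next, in the 5 members sorted under it, Lifr, Il6st, Stat3, Socs3 and Pim1. All 8 probes of these 5 genes were lower at 72 h than with control siRNA, with a median log2 difference of -0.21. At 48 h 7 of 8 were lower, with a median of -0.12. With quantile normalization 7 of 8 were lower at 72 h and 6 of 8 at 48 h. Most measured probes were lower as well, with a median over all probes of -0.07 at both times and 36.9% higher at 72 h. None of the 8 probes of these 5 genes passed 1.5-fold. Tbx3 and the STAT3 targets Tfcp2l1, Gbx2 and Myc were sorted under other roles and are not in these counts. Their differences at 48 h and 72 h went both ways, at 0.83 and 0.26 for Tbx3 and -0.15 and -0.36 for Gbx2. The Tfcp2l1 probes were at 0.85 and 0.85 and at 0.50 and -0.07, and Myc at 0.16 and -0.21. The LIF receptor gene Lifr was read by 3 probes. Probe A_55_P2159259 had a level of 3.10 in untreated and 3.07 in control siRNA cells, and 2.87 after 48 h and 2.72 after 72 h of Rif1 siRNA, probe A_55_P2159264 had 0.302, 0.312, 0.258 and 0.263, and probe A_51_P113182 had 0.199, 0.182, 0.167 and 0.178. On all 3 both Rif1 siRNA arrays lay below both others, as for 43.3% of all probes, with log2 differences from control siRNA between -0.28 and -0.03.

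Il6st, which encodes the shared signaling chain gp130, had levels of 1.00, 1.00, 0.898 and 0.817, or log2 differences of -0.16 and -0.29. Stat3, the transcription factor activated by the receptor, had a level of 5.75 in untreated and 5.32 in control siRNA cells, and 4.89 after 48 h and 4.22 after 72 h of Rif1 siRNA on probe A_51_P201480, which has 10 spots per array. The spots of the control siRNA array ran from 5.10 to 5.60 and those of the 72 h array from 4.02 to 4.52, for a difference of -0.34. The spread of spots covers measurement within an array and not differences between cultures. On probe A_55_P1991219 the levels were 0.0808, 0.0979, 0.0867 and 0.0792, with differences of -0.17 and -0.31, but here untreated cells were within the range of the Rif1 siRNA arrays. The transcript level says nothing of the phosphorylated protein, which is the active form.

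The STAT3 targets Socs3 and Pim1 stayed close to control siRNA. Socs3, which encodes the feedback inhibitor of the receptor, had a level of 19.5 in untreated and 21.1 in control siRNA cells, and 20.6 after 48 h and 19.8 after 72 h of Rif1 siRNA, with log2 differences of -0.03 and -0.09. Pim1, a kinase gene, had levels of 1.01, 1.19, 1.20 and 1.16. Both genes had differences within the software error of 0.20 at both times. Myc, a further target, was at 2.19, 1.82, 2.02 and 1.57, and the untreated level was the highest of its 4. Mycn differed by -0.07 and -0.07 at 48 h and 72 h.

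The members listed as repressors and chromatin cofactors were close to the general shift of the arrays. All 6 probes of Jarid2 (a cofactor of Polycomb repressive complex PRC2), Rest (a repressor of neuronal genes), Zfp281 (a zinc finger factor that restrains Nanog) and Tcf3 had both Rif1 siRNA arrays below both others, as 43.3% of all probes did. Without Tcf3, the log2 differences from control siRNA ran from -0.10 to -0.06 at 48 h and from -0.14 to -0.05 at 72 h, around the median of -0.07 over all probes. With quantile normalization 5 of the 6 were lower at each time. The Tcf3 probes were at -0.27 and -0.28 at 48 h and -0.23 and -0.13 at 72 h, but they read the E2A gene, as their accessions show, and not the WNT effector that is also called Tcf3 in ES cells. That gene, Tcf7l1, had levels of 1.67, 1.52, 1.53 and 1.62, or 0.00 and 0.09 from control siRNA.

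The SALL zinc finger genes and the RNA-binding gene Lin28a, whose product blocks let-7 maturation, gave small differences in both directions. The 3 Sall4 probes were at 0.15, -0.12 and 0.29 at 72 h, and at 0.22, -0.05 and 0.40 at 48 h, so that 1 probe was opposite to the other 2. Their levels were 9.21, 7.84, 9.11 and 8.68 on probe A_51_P349087, 0.570, 0.525, 0.507 and 0.484 on probe A_51_P145260, and 0.185, 0.156, 0.206 and 0.191 on probe A_55_P2173546. Sall1 was at 0.02 and -0.23 at 48 h and 72 h. Lin28a was at -0.21 and -0.19, with levels of 23.4, 22.4, 19.4 and 19.6, so that both Rif1 siRNA arrays were lower.

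Of the ES cell marker genes and secreted factors, Fbxo15 had the highest log2 difference of any member at both times. The level of Fbxo15, an F-box gene used as a marker of undifferentiated cells, was 21.9 in untreated and 21.0 in control siRNA cells, and 41.5 after 48 h and 38.1 after 72 h of Rif1 siRNA. Control siRNA cells were within 0.06 (log2) of untreated cells, and the Rif1 siRNA arrays were 1.98 and 1.82 times control siRNA, log2 differences of 0.98 and 0.86. With quantile normalization the 48 h value passed 2-fold. The 3 probes of Tdgf1, the Nodal co-receptor gene Cripto, were higher with Rif1 siRNA by at most 0.17, less than the 0.22 to 0.30 by which control siRNA exceeded untreated cells.

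Utf1, a chromatin-bound factor of undifferentiated cells, was lower, at 67.1, 64.4, 54.7 and 54.7, with log2 differences of -0.24 and -0.24. Fgf4, the growth factor that drives ES cells out of the naive state, was at -0.08 and -0.12. Tcl1, a coactivator of AKT, was at 0.12 and -0.17, the adhesion gene Pecam1 at 0.27 and 0.06, and Spp1, which encodes osteopontin, at 0.26 and -0.13. The enzyme gene Alpl, whose product gives the alkaline phosphatase stain of ES cells, is not a member and was at 4.41, 4.80, 4.09 and 4.38.

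**Figure D3:**
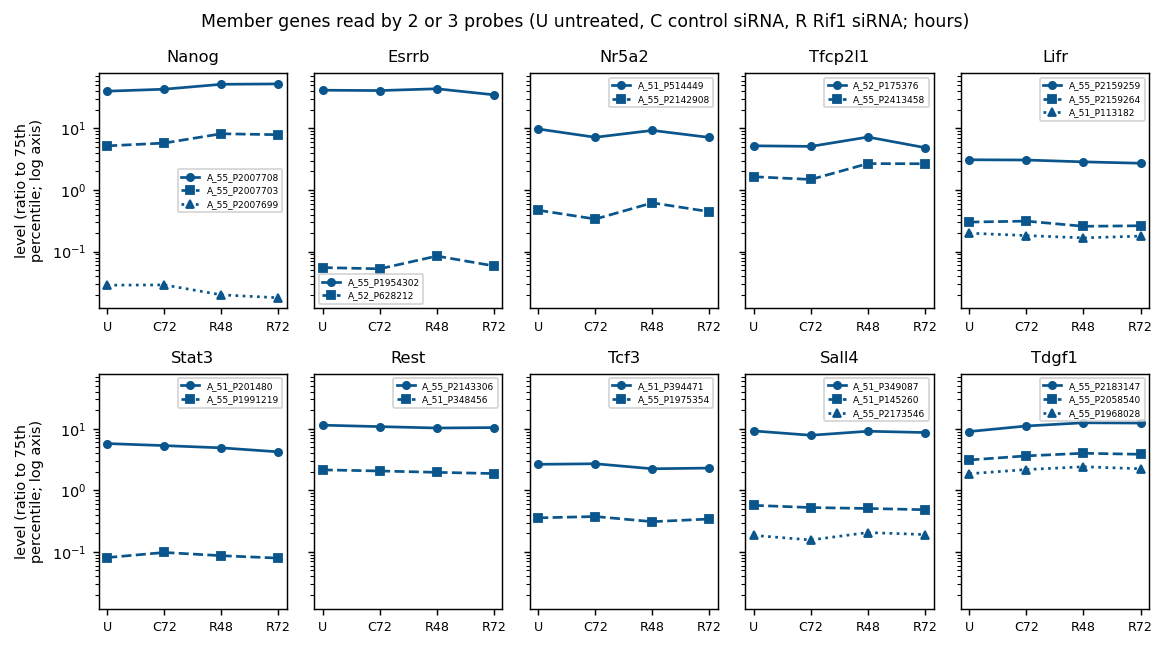
Levels (log axis, ratio to the 75th percentile of the array) on the 4 arrays for the 10 member genes with more than 1 probe, with a line per probe. From control siRNA to Rif1 siRNA the third Nanog probe runs opposite to the other 2, and the Tfcp2l1 probes part at 72 h.

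The members as a whole were then set beside all measured probes. At 72 h the median log2 difference from control siRNA was -0.09 over the 49 member probes and -0.07 over all. At 48 h it was 0.04 over the members and -0.07 over all, and 29 of 49 member probes were higher (59.2% against 38.7% of all). With median scaling the 48 h median of the members was -0.05, while that of all probes well above background on the 4 arrays moved from -0.07 to -0.17. From 48 h to 72 h the median was -0.07 over the members, of which 39 of 49 were lower, and -0.01 over all, of which 48.8% were higher. Between control siRNA and untreated cells the medians were -0.03 and -0.01.

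By direction over all 4 arrays, 14 of 48 member probes had both Rif1 siRNA arrays above both others, or 29.2% against 18.1% of all probes. Those genes are Pou5f1, Sox2, Nanog (2 probes), Esrrb, Tbx3, Prdm14, Tfcp2l1, Sall4, Tdgf1 (3 probes), Pecam1 and Fbxo15. The count takes direction alone, whatever its size. For Sox2 the gap between the arrays was 0.004 (log2), and its sign against control siRNA changed with the processing. Both Rif1 siRNA arrays lay below both others for 16 of 48, or 33.3% against 43.3% of all probes. These are Gbx2, Lifr (3 probes), Il6st, Stat3, the 6 probes of the repressors, Sall4, Lin28a, Utf1 and Fgf4. Under the other ways of scaling the counts were 11 to 18 above and 13 to 20 below. The shares of 18.1% and 43.3% hold for the main scaling only, so these ranges are not set against a background. Scaling moves all probes as well: those lower than control siRNA at 72 h ran from 63.4% with quantile normalization to 75.8% with median scaling.

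**Figure D4:**
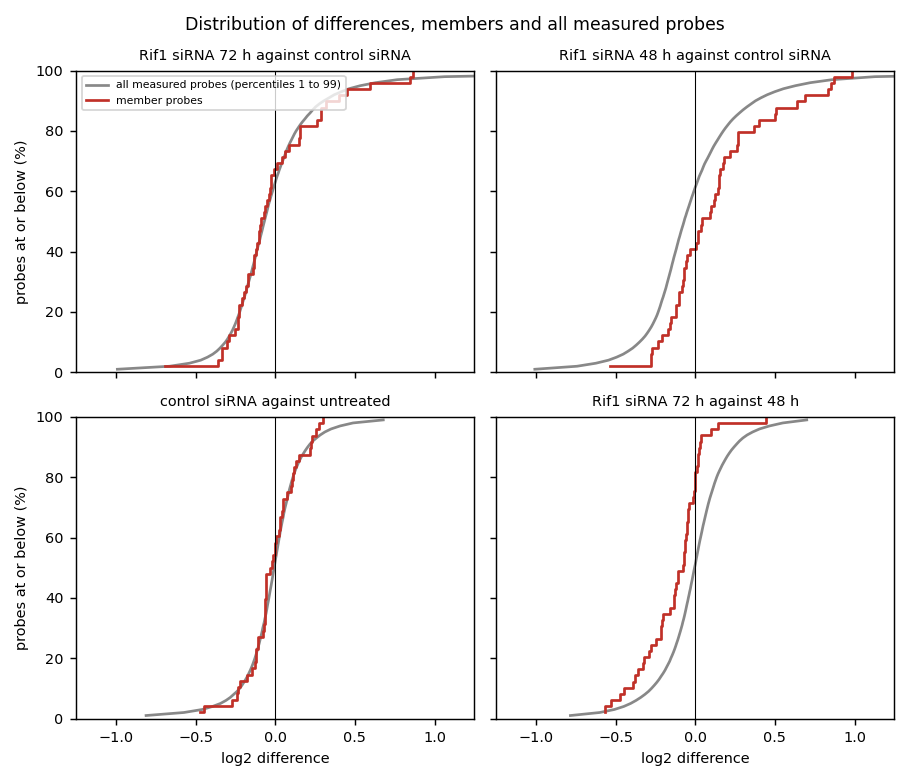
Cumulative share of probes (vertical axis, %) at or below each log2 difference (horizontal axis) for the members and for all measured probes, in 4 comparisons. At 72 h against control siRNA the curves run together around medians of -0.09 and -0.07, and at 48 h the member curve lies to the right, with medians of 0.04 and -0.07.

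Other genes of the LIF pathway, a list of 21 genes, were measured by 24 probes well above background on both arrays. At 72 h 1 was over 1.5-fold higher and 2 lower, and at 48 h 1 was higher and 1 lower, with medians of -0.13 and -0.08. Over all measured probes, 4.45% were higher and 2.54% lower at 72 h, and 5.55% and 3.43% at 48 h. The median over all was -0.07 at both times. Il6ra, a receptor chain that pairs with gp130 for interleukin 6, had a level of 0.235 in untreated and 0.222 in control siRNA cells, and 0.857 after 48 h and 0.894 after 72 h of Rif1 siRNA. Both Rif1 siRNA arrays were about 3.87 and 4.04 times control siRNA, which itself was at -0.09 (log2) from untreated cells. Cntfr, the receptor chain for ciliary neurotrophic factor, had 0.0292 in untreated and 0.0817 in control siRNA cells, and 0.0429 after 48 h and 0.0403 after 72 h of Rif1 siRNA on probe A_55_P2133013, where the control siRNA array stood alone above the other 3, and 0.188, 0.241, 0.283 and 0.322 on probe A_55_P2133007. The 4 probes of Socs2, a further SOCS gene, were between -0.61 and -0.36 at 72 h, and 1 of them passed 1.5-fold.

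Among 24 further pluripotency genes, 34 probes were measured and 1 was over 1.5-fold higher at 72 h and 3 at 48 h, with 0 lower at either time. Of all measured probes, 4.45% were over 1.5-fold higher at 72 h and 5.55% at 48 h, and 2.54% and 3.43% were lower. Id3, a target of BMP signaling, was the gene that passed at both, at 3.20, 2.47, 5.07 and 3.83. The FGF-ERK and WNT list had 0 of 27 probes past 1.5-fold at either time. Of 17 measured probes for 13 marker genes of primed cells and germ layers, 3 were over 1.5-fold higher at each time and 0 lower. At 72 h all 3 were over 2-fold higher, and at 48 h 1 was, where 2.12% and 2.35% of all probes were. Sox3 (a neural SOX gene) was at 0.450 in untreated and 0.454 in control siRNA cells, and 0.897 after 48 h and 1.10 after 72 h of Rif1 siRNA, and Gata3 (a trophoblast factor) at 0.0674, 0.0517, 0.186 and 0.148. For both genes the Rif1 siRNA arrays lay above the others. The medians of the list were 0.34 at 48 h and -0.04 at 72 h. The 3 probes of Dnmt3b, a de novo DNA methyltransferase gene, were lower, between -0.47 and -0.25 at 48 h and between -0.22 and -0.14 at 72 h. The primed markers Otx2 and Fgf5 did not pass 1.5-fold.

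Markers of other cell types and states moved with the members in part. The 10 measured probes of primitive endoderm markers, a lineage that arises beside ES cells, had a median of -0.68 between control siRNA and untreated cells, 0.36 at 48 h and -0.20 at 72 h against control siRNA, and -0.55 over 11 probes from 48 h to 72 h. Their summed level was 4.89, 3.19, 3.89 and 2.75 on the untreated, control siRNA, 48 h and 72 h arrays, and Gata6 and Gata4 were well above background on all 4. The naive network factors were also lower at 72 h than at 48 h, and the part of these cells in that difference was not tested. Fibroblast markers had summed levels of 4.26, 3.84, 4.49 and 4.52, and 5 of their 8 probes were well above background on all arrays, with Postn and Lum on none. Of the 5, 4 were over 1.5-fold higher than control siRNA at 72 h, where 4.45% of all measured probes were. At 48 h 0 of the 5 were, where 5.55% of all were. The part of fibroblasts in the members' differences was not tested.

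Two-cell-like markers, genes that a small share of ES cells express in bursts, were far higher with Rif1 siRNA. Of their 11 measured probes, 9 were over 2-fold higher at both times, where 2.35% of all measured probes were at 48 h and 2.12% at 72 h. Their medians were 4.10 at 48 h and 4.44 at 72 h, and the summed level was 12.6, 21.8, 256.8 and 295.9. Control siRNA already differed from untreated cells, with a median of 1.04. In that comparison 6 of the 11 were over 2-fold higher, against 0.377% of all probes. In the same RNA no member passed 2-fold, and the part of two-cell-like cells in the members' differences was not tested.

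**Figure D5:**
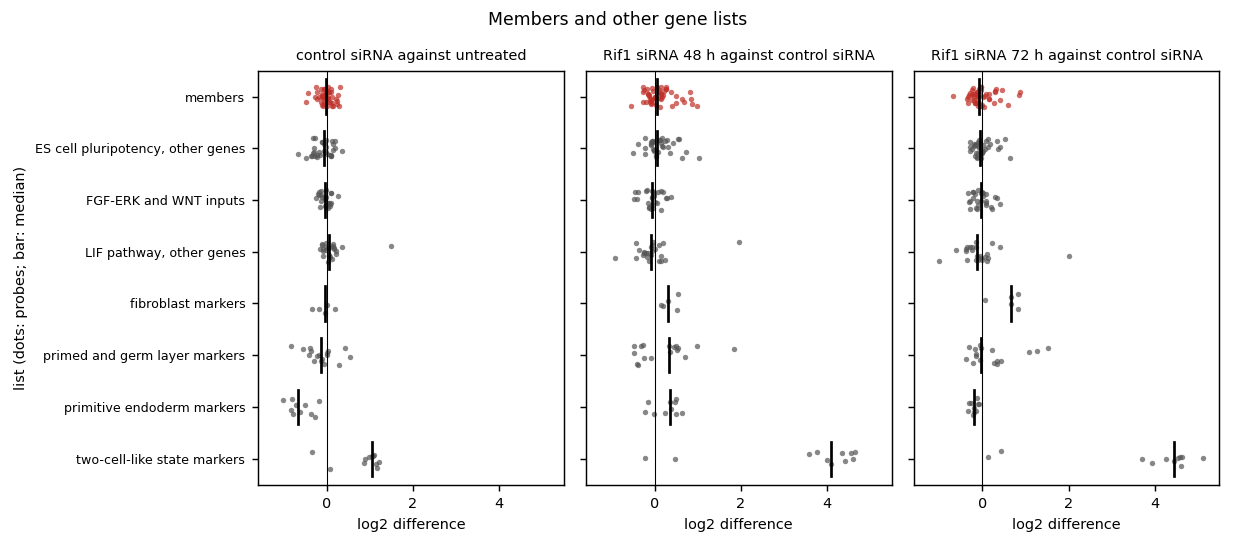
Log2 differences of the measured probes of the members and of 7 other gene lists (dots, with the median as a bar) in 3 comparisons, with 1 array per condition. Of 11 two-cell-like probes, 9 stand over 2-fold to the right with Rif1 siRNA at both times, while the members stay between -0.69 and 0.98.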

How the data were processed

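Cy3-labeled cRNA of 4 samples was hybridized to a mouse array of 60-base probes. The authors deposited the Agilent Feature Extraction output (version 11.5.1.1, per the submitters' processing notes), in which the processed signal of each spot is an intensity with background subtracted and spatial trend removed. They also deposited a table in which signals are given as a ratio, found here to be that to the array's 75th percentile. Here each processed signal was divided by the 75th percentile of the 43020 non-control spots and log2 was taken. Outlier spots were left out (120 to 152 per array, 0 in members), and 0 spots were saturated. Repeated spots were averaged. A probe was measured in a comparison when it was well above background on both arrays. The value of a gene is the mean over its measured probes.

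Conditions came from the sample labels, and probes were named as in the files. RefSeq matched 47 of the 49 member probes, with the same symbol each time. No test was run, since there is 1 array for each condition, which also sets the precision. The genes named with 4 levels are Rif1, the core and LIF receptor genes, members over 1.5-fold at either time, and those whose probes differed in direction by over 0.3 (log2). Genes of other lists over 1.5-fold at both times, Alpl and Tcf7l1 are also given 4 levels, as are Gm5712 and Zfp872, whose probes share bases with member probes. A few more members are given 4 levels because both Rif1 siRNA arrays lay to 1 side or for their role, and Socs2 was added after its values were seen. The members and lists were chosen with earlier results of these data known, and the motif TTTGCAT was added after the promoters were seen. Alternatives were normexp correction (offset 50), quantile normalization, the deposited ratios, median scaling, other filters, other controls and RefSeq naming. Only the 2-fold threshold was tried on simulated data, a copy of the control siRNA array with planted changes well over 2-fold. The noise added was smaller than the spread between control siRNA and untreated cells. The 1.5-fold threshold, the scaling and the filters were not tested in this way. Python 3.11.15, pandas 2.3.3, numpy 2.4.6, matplotlib 3.10.9, R 4.3.3 and limma 3.58.1 were used. The second experiment that the methods mention was not analysed here.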

Additional observations from a re-analysis of the deposited data

Results flagged for a closer look

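For 2 member probes the log2 difference from control siRNA had opposite signs at 48 h and 72 h of Rif1 siRNA, and the 2 times were apart by more than 0.41, which is 2 times the software error of a difference. Nr0b1 was at 0.12 at 48 h and -0.33 at 72 h, so the later array was at -0.45 from the earlier one. The Tfcp2l1 probe A_52_P175376 was at 0.50 and -0.07, and the value between the times was -0.57. The other Tfcp2l1 probe differed by -0.01 between the times. Each time has 1 array and both share the control siRNA array, so the difference between the times was not tested.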

How the results depend on the processing

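Values were recomputed under 11 alternatives. The brightest probe applies to values of genes alone, and untreated cells as the control only to the comparisons with control siRNA. A log2 value counted as moved when it shifted by more than 0.26, the SD of the differences of control siRNA from untreated cells. No gene mean that was itself over 1.5-fold in a comparison with control siRNA turned sign under these alternatives in that comparison. Among smaller gene means that moved, Tfcp2l1, Nr5a2 and Klf4 turned sign at 72 h and Myc at 48 h. The number of member probes over 1.5-fold lower at 72 h was 0 in place of 1 with normexp background correction, with probes well above background on all 4 arrays and with untreated cells as the control. At 48 h it was 1 in place of 0 with quantile normalization and with median scaling, through the third Nanog probe. With quantile normalization the number over 2-fold higher at 48 h was 1 in place of 0, that of Fbxo15. With normexp the number over 1.5-fold lower from 48 h to 72 h was 1 in place of 0. The cause of these was not tested. Pou5f1 was under 1.5-fold at 72 h with normexp, with median scaling and with centering on bright probes, an alternative chosen after seeing the data. By the brightest probe alone, Tfcp2l1 was at -0.07 at 72 h against control siRNA and -0.57 against 48 h, Esrrb at 0.10 at 48 h and Nanog at 0.29 at 72 h. With probes well above background on all 4 arrays, Nanog was at 0.38 at 48 h and 0.37 at 72 h. With RefSeq names Esrrb was at 0.10 at 48 h. Against untreated cells, 8 gene values moved, at 48 h and 72 h to 0.51 and 0.50 for Nanog, 0.35 and 0.21 for Klf4, 0.16 and -0.27 for Nr5a2, and -0.11 and -0.48 for Myc. For Nanog this setting also left out the third probe, which was not well above background in untreated cells. Over the same probes, Nanog was at 0.38 and 0.37 against control siRNA. Of 48 member probes, 5 were over 1.5-fold higher than in untreated cells at 48 h, with a Nanog probe added and those of Nr5a2 and Prdm14 left out. At 72 h 4 of 48 were, with a Nanog probe added. No share over all probes is given for this reference, so these 2 counts are not set against a background. No paired analysis was possible because no group has a second sample. Small differences among members cannot be told from differences between cultures.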
